A study of Mus musculus with 84 samples.

Results

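Clodronate liposomes after traumatic brain injury were set against injury alone at day 1 in 8 of the series' 84 RNA-seq libraries, all of mouse microglia collected by fluorescence-activated cell sorting and all of the earlier of the 2 library years that the labels name for day 1. The libraries were chosen by name and not by any measured value: clodronate libraries 1, 3 and 4 (n = 3) and injury-only libraries 1 to 5 (n = 5). Both groups had a severe traumatic brain injury 1 day before collection, and the clodronate group also received clodronate encapsulated in liposomes, which the study used to deplete monocytes outside the brain. In the same fit stood 2 vehicle libraries (the same injury with vehicle liposomes) and 5 uninjured libraries of the same day and year. The sources used here give neither strain, sex and age, nor the dose, route and timing of the liposomes, nor the markers of the sort, nor the mouse behind each library. Each p-value therefore rests on library-to-library spread, which may be technical.

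Microglia are the resident macrophages of the brain, while monocytes come from the blood and enter the brain after injury. Clodronate is a bisphosphonate that kills phagocytes once they have taken it up in liposomes, and vehicle liposomes control for the uptake of the lipid particle itself. Injured microglia are known to switch on cytokine genes such as Il1b through the transcription factor NF-kB, and to divide, a programme that runs from DNA replication through the cyclins and mitotic kinases to the splitting of the cell.

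The cells carried their label. The summed level of 22 homeostatic microglia genes, in counts scaled to a common library size (CPM), was 51300 to 60010 CPM in the clodronate libraries and 49720 to 56010 CPM in the injury-only libraries. The total gene count was 13037074 to 15602105 in the clodronate libraries and 12945907 to 14716977 in the injury-only libraries. Fewer genes had at least 1 count in the clodronate libraries (17537 to 17934) than in the injury-only libraries (18170 to 18815), without overlap (two-sided exact permutation test, p = 0.0357, the smallest this test can give; adjusted p = 0.179 over 5 library measures). The log2 CPM values of libraries correlated at 0.973 to 0.981 within the clodronate group, at 0.969 to 0.976 within the injury-only group and at 0.95 to 0.967 between them, over genes.

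Of 14007 genes tested with edgeR's quasi-likelihood test, 748 differed between the clodronate and the injury-only libraries at an adjusted p under 0.05, which is 5.34% of the genes. Of these, 324 were higher with clodronate (2.31% of the genes tested) and 424 were lower (3.03%). The median log2 fold change of all genes was -0.005. Genes of mitosis made up the largest group of raised genes among the lists examined, and the lists with the most lowered members were cytokine and NF-kB (12), endothelial and mural (11), immediate early (7), heat shock (6) and glycolysis and hypoxia (5). The total depended on single libraries: 250 genes were called without clodronate library 3, 392 without clodronate library 1 and 494 without clodronate library 4. Sets of genes below are read against the shares of 2.31% and 3.03%. Of all 14007 genes, 973 had every clodronate library above every injury-only library, and 1151 had every one below. Among the 748 called genes these were 308 and 387. Genes named for the largest fold changes had to show such separation, so for them it adds no support.

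**Figure D1:**
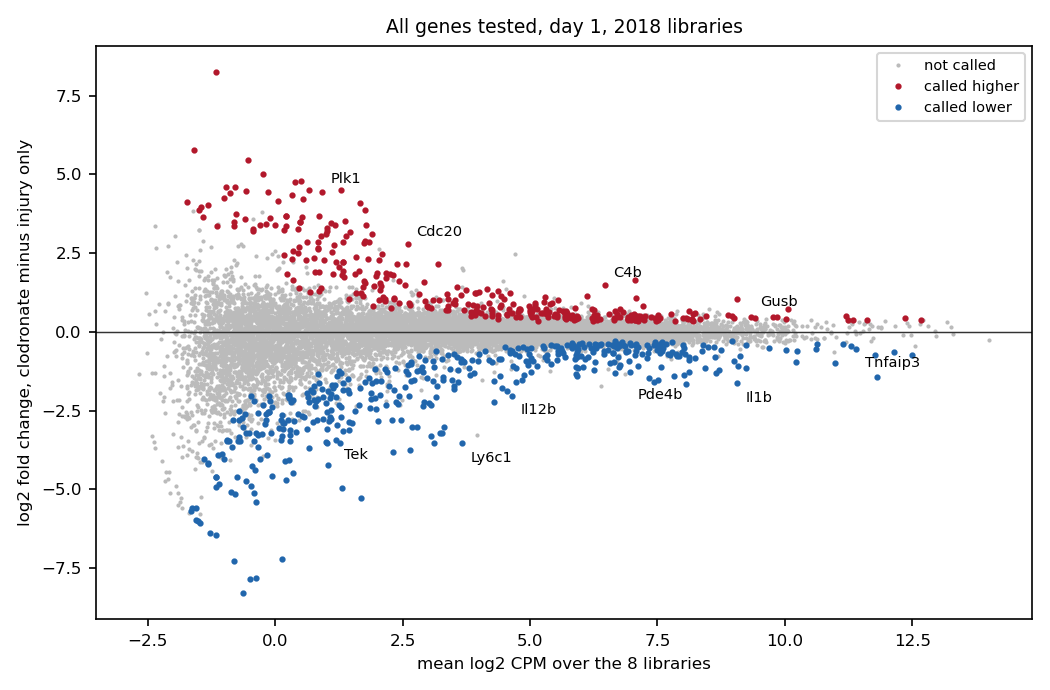
Each point is 1 of the 14007 genes tested, with the mean log2 CPM over the 8 libraries on the x axis and the log2 fold change of clodronate minus injury only on the y axis; red and blue mark the 324 genes called higher and the 424 called lower. The raised mitotic genes (Plk1, Cdc20) and the lowered vessel genes (Tek, Ly6c1) lie at low levels, while the lowered Il1b, Pde4b and Tnfaip3 lie among well expressed genes.

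Cell cycle genes were higher in clodronate microglia. Of 31 genes on the list, 22 rose, none fell, and 30 had a positive fold change; the median log2 fold change was 1.90. With a stricter filter on low counts, which left 21 of these genes in the test, 12 rose and the median was 1.06. Plk1, a kinase that drives entry into and progress through mitosis, was at 6.44, 10.2 and 19.95 CPM in clodronate libraries 1, 3 and 4 and at 0.389, 0.686, 0.33, 0.99 and 0.338 CPM in injury-only libraries 1 to 5. The lowest clodronate library was thus above every injury-only library. The log2 fold change was 4.46 (SE 0.48, adjusted p = 6.86e-05), and the vehicle libraries were at 1.72 and 0.413 CPM. The uninjured libraries had a mean of 1.51 CPM, and injury only minus uninjured was -1.44 for Plk1 (adjusted p = 0.0212). The list summed to 517 to 774 CPM with injury alone and to 478 to 541 CPM in the uninjured libraries.

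Other mitotic genes were likewise higher in all 3 clodronate libraries than in any injury-only library. Birc5 (survivin), a subunit of the complex that holds chromosomes to the spindle, rose by a log2 fold change of 4.51 (SE 0.49, adjusted p = 6.86e-05). Ccna2 (cyclin A2) rose by 4.80 on the log2 scale (SE 0.58, adjusted p = 9.97e-05) and Ube2c, an enzyme that marks cyclins for destruction, by 4.35 (SE 0.52, adjusted p = 9.15e-05). Top2a, the topoisomerase that untangles replicated DNA, was at 9.82, 23.5 and 30.2 CPM with clodronate and between 0.264 and 2.9 CPM in the injury-only libraries. Mki67, a marker of dividing cells, was at 3.76, 11.8 and 14.2 CPM with clodronate and between 0.411 and 1.35 CPM without. For both genes, clodronate library 1 was the lowest of the 3 and still stood above all 5 injury-only libraries. Top2a and Mki67 were singled out after their values were seen. So were Cdc20, Cdk1, Ccnb2, Rrm2, Pcna, Hmgb2, Pimreg and the Mcm genes below. Prc1, which crosslinks the spindle midzone, was singled out in the same way. It had the smallest p of all genes (log2 fold change 4.52, SE 0.41, adjusted p = 2.28e-05).

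Genes of DNA replication differed among themselves. Rrm2, the subunit of ribonucleotide reductase made in dividing cells, rose by 3.87 on the log2 scale (SE 0.43, adjusted p = 6.86e-05). Of the replicative helicase genes, Mcm7 rose by 0.97 (SE 0.25, adjusted p = 0.0273), and lost the call without any of clodronate library 1 or 3 or injury-only library 1 or 2 (adjusted p up to 0.137). Mcm2 was at 100.2, 103.9 and 56.9 CPM with clodronate and at 27.9, 21.5, 39.5, 88.1 and 72.8 CPM without, so that the groups overlapped, with an adjusted p of 0.187. Mcm5 differed by 1.08 (SE 0.33, adjusted p = 0.0615). Pcna, the sliding clamp of DNA polymerase, differed by 0.07 (SE 0.10, adjusted p = 0.766), and Hmgb2, a chromatin protein abundant in cycling cells, by -0.21 (SE 0.12, adjusted p = 0.328). Injury alone also stood apart from uninjured in both directions. Injury only minus uninjured was -1.67 for Birc5 (adjusted p = 0.00959) and -2.43 for Ccna2 (adjusted p = 0.00192). It was 1.84 for Mcm2 (adjusted p = 0.000168) and 1.33 for Mcm5 (adjusted p = 0.00191). Mki67 (-0.61) and Top2a (-0.97) were not called.

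**Figure D2:**
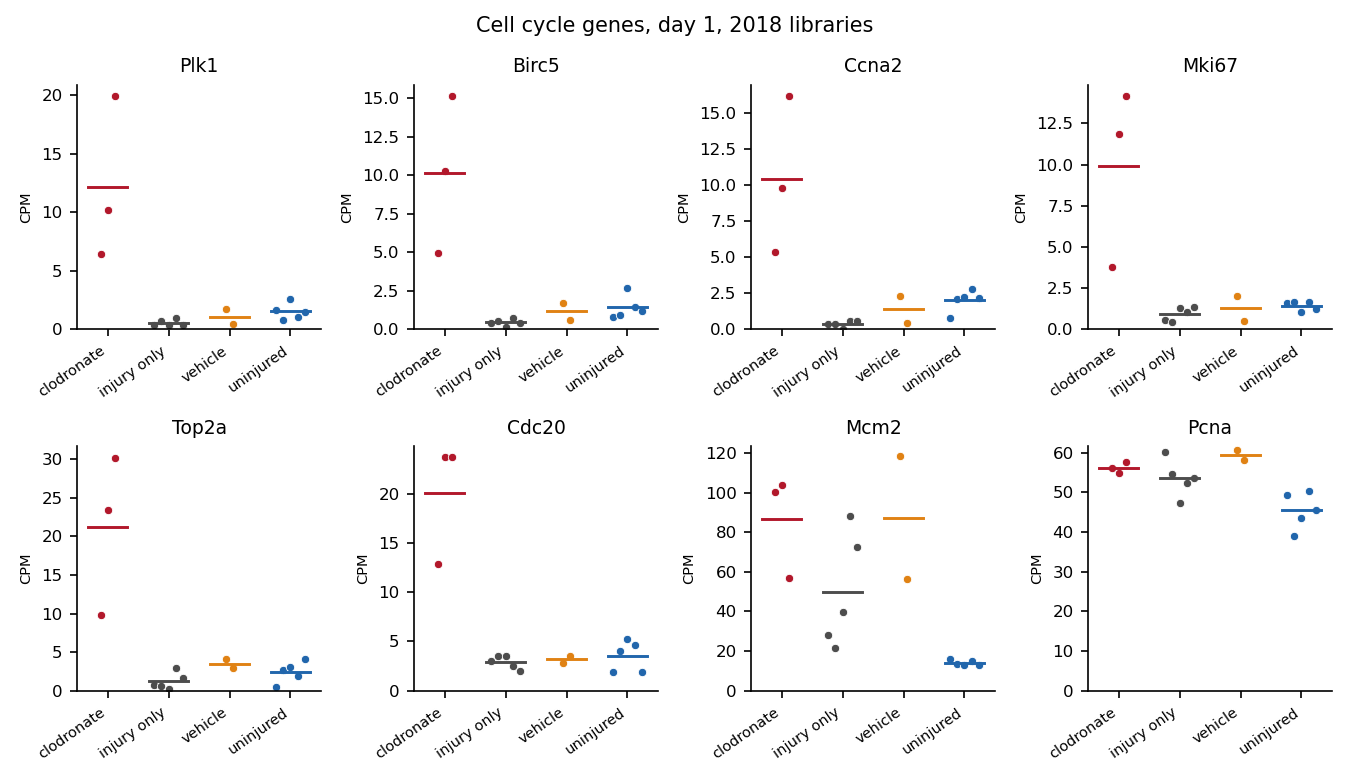
CPM on linear axes from 0 for 8 cell cycle genes in the 15 libraries of day 1 and the earlier year; points are libraries and bars are group means. For Plk1, Birc5, Ccna2, Mki67, Top2a and Cdc20 all 3 clodronate libraries lie above all 5 injury-only libraries, whereas for Mcm2 and Pcna the groups overlap.

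The promoters of these genes are shown because the genes moved together and share a known sequence feature. CCAAT boxes, bound by the factor NF-Y, and the element TTTGAA, a form of the cell cycle homology region bound by the DREAM and MuvB complexes, are textbook parts of mitotic promoters. In the 150 bases before the RefSeq start (build GRCm38.p6), read on both strands, CCAAT occurred in 15 of the 18 raised cell cycle genes with a promoter in the table and in 26.4% of all 19780 promoters. TTTGAA occurred in 5 of the 18 and in 8.2% of all promoters. The motifs do not overlap, and a match is a description of the letters, not of a bound site. The 4 examples below run 5′ to 3′ in the direction of the gene, end at the base before the start, and have both motifs in capitals on either strand; Ccnb2 has CCAAT alone.
Cdc20: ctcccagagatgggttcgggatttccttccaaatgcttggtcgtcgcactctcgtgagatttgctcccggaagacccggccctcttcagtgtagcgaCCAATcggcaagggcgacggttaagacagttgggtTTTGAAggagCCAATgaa
Cdk1: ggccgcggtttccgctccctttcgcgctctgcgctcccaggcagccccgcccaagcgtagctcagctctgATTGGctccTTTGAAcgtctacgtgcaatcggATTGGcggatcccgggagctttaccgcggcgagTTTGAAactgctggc
Ccnb2: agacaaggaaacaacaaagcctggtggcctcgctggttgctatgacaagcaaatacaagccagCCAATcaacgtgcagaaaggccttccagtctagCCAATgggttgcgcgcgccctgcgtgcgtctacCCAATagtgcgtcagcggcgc
Top2a: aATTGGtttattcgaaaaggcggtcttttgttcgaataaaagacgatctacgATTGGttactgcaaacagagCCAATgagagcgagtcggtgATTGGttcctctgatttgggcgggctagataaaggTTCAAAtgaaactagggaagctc
They lie at chr4:118437344-118437493, chr10:69352913-69353062, chr9:70421555-70421704 and chr11:99024190-99024339, all on the minus strand. Cdk1, the kinase that pairs with the B cyclins, rose by 2.49 on the log2 scale (SE 0.29, adjusted p = 8.48e-05).

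Vehicle liposomes gave a smaller median over the cell cycle list, but not smaller values for the Mcm genes. Against injury alone, vehicle gave 0.81 for Mcm2, 1.17 for Mcm5 and 1.03 for Mcm7 on the log2 scale, none of them called. The summed list was at 652 and 1050 CPM with vehicle and at 978 to 1177 CPM with clodronate, so 1 vehicle library lay in the clodronate range. Set against the same injury-only libraries, the 2 vehicle libraries had a median log2 fold change of 0.75 over the 31 genes, with none called higher and 1 called lower, where 0.228% of all genes were called higher and 0.685% lower. The test of the difference, clodronate minus vehicle, called 3 of 14007 genes (0.0214%; 724 had an unadjusted p under 0.05), and 2 of them belong to mitosis. Cdc20, which activates the complex that starts chromosome separation, was at 12.8, 23.8 and 23.7 CPM with clodronate, at 2.77 and 3.55 CPM with vehicle and between 2.03 and 3.56 CPM with injury alone. The 3 clodronate libraries stood above every other library of the day and year, the uninjured ones included. Cdc20 differed from vehicle by a log2 fold change of 2.67 (SE 0.43, adjusted p = 0.0371), and Pimreg, a regulator of the step from metaphase to anaphase, by 4.85 (SE 0.79, adjusted p = 0.0371). Plk1 differed from vehicle by 3.49 (SE 0.65) with an adjusted p of 0.06. No gene was called between clodronate and vehicle when vehicle library 1 was left out, and 41 were with DESeq2's Wald test.

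Libraries of the later year, which the choice of libraries left out, give the same genes in other samples. Cdc20 was at 37.6, 11.05 and 28.1 CPM in 3 clodronate libraries and at 6.01 and 8.13 CPM in 2 vehicle libraries of day 1, scaled within that year. Plk1 was at 30.8, 3.69 and 21.3 CPM with clodronate and at 7.47 and 4.11 CPM with vehicle. All 3 clodronate libraries were above both vehicle libraries for Cdc20, and 2 of the 3 were for Plk1. The day 1 samples of that year used here are clodronate and vehicle only, so they give no comparison with injury alone.

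Levels of genes of other cell types stand beside the cell cycle result, and their part in it was not tested. The summed level of 19 monocyte and infiltrating macrophage genes was 339 to 451 CPM with clodronate and 296 to 1074 CPM with injury alone, and Ly6c2, which defines inflammatory monocytes, was at or below 0.973 CPM in all 8 libraries. Of 15 neutrophil genes, Ly6g, Mpo and Camp were at 0 in all 8 libraries. The 15 summed to 634 to 725 CPM with clodronate and to 612 to 687 CPM with injury alone. Of 15 T and NK cell genes 6 were at 0 in all 8. These 15 summed to 5.04 to 17.9 CPM with clodronate and to 18.1 to 63.7 CPM with injury alone. Ccl5 of that list was alone at 4.46 to 16.5 CPM and at 17.3 to 62.5 CPM. The 10 erythroid and platelet genes summed to 99.9 to 262 CPM with clodronate and to 31.5 to 112 CPM with injury alone, so the ranges overlapped; their median log2 fold change was 2.04, with Alas2, the first enzyme of haem synthesis in red cells, called higher (3.17, SE 0.88, adjusted p = 0.0415, and up to 0.139 without any library but injury-only library 4) and the platelet chemokine gene Ppbp called lower (-4.97, SE 1.19, adjusted p = 0.0192, and up to 0.105 without any 1 clodronate library). The groups of Ppbp overlapped, injury-only libraries 4 and 5 held its highest levels (24.9 and 53.7 CPM), and its log2 fold change was -3.91 without injury-only library 5 and -2.38 without both (adjusted p = 0.128). Its call also ended with voom (adjusted p = 0.368), in a fit of the 2 groups alone (0.0711) and with library year as a covariate (0.0506). Alas2 had 4.00 without injury-only library 4. The haemoglobin genes did not pass the test, and their near-identical copies share reads.

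Cytokine and NF-kB genes were lower in clodronate microglia. Of 26 genes tested 12 fell and 1 rose, with a median log2 fold change of -0.63, and 22 had a negative fold change. Il12b, the p40 subunit shared by interleukins 12 and 23, was at 9.62, 11.1 and 11.2 CPM with clodronate and at 55.4, 23.2, 49.2, 39.1 and 49.6 CPM with injury alone. Every clodronate library was well below the lowest injury-only library. The log2 fold change was -2.03 (SE 0.24, adjusted p = 8.88e-05).

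Il1b, the gene of the main inflammasome cytokine, was at 306, 270 and 248 CPM with clodronate and at 1241, 519, 849, 586 and 1054 CPM with injury alone. The means were 275 ± 29.2 CPM (SD, n = 3) and 850 ± 306 CPM (SD, n = 5), and the log2 fold change was -1.63 (SE 0.26, adjusted p = 0.00125). The groups did not overlap, although the injury-only libraries spread over a range of more than 2 times. Ptgs2, which encodes cyclooxygenase 2 of prostaglandin synthesis, was at 81.9, 98.7 and 81.6 CPM with clodronate and between 185 and 307 CPM without (log2 fold change -1.45, SE 0.21, adjusted p = 0.000559).

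Receptors and inhibitors of the same pathway were among the members called. Tlr2, a receptor for bacterial lipoproteins, had a log2 fold change of -0.61 (SE 0.13, adjusted p = 0.0126), Cd14, the co-receptor for lipopolysaccharide, one of -0.73 (SE 0.19, adjusted p = 0.0302), and Tnfaip3 (A20), an inhibitor of NF-kB, one of -0.54 (SE 0.13, adjusted p = 0.0195). The groups of Cd14 overlapped. The calls of Tlr2 and Tnfaip3 were lost without clodronate library 1 or 3, at adjusted p-values of up to 0.101 and 0.0938, and that of Cd14 without any of those or injury-only libraries 1, 2 and 3, at up to 0.151. Cxcl1, a chemokine for neutrophils, had -1.52 (SE 0.43, adjusted p = 0.0439), a call that held only when no library or clodronate library 4 was left out (up to 0.194). Socs3, a feedback inhibitor of cytokine receptors, was the 1 member that rose (0.39, SE 0.11, adjusted p = 0.0405), and lost its call without any clodronate library or injury-only library 1, 2 or 4 (up to 0.171). The number of members called lower was 4 without clodronate library 3 and 6 without clodronate library 1.

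Not every inflammatory gene was lower. Tnf was at 747, 847 and 994 CPM with clodronate and at 1131, 697, 914, 588 and 1131 CPM with injury alone, a log2 difference of -0.05 (SE 0.19, adjusted p = 0.922). Nfkbia, the inhibitor that NF-kB switches on first, differed by 0.14 (SE 0.13, adjusted p = 0.596). Ccl2, the chemokine that recruits monocytes, was at 387, 450 and 750 CPM with clodronate and between 182 and 451 CPM without, a difference of 0.74 (SE 0.25, adjusted p = 0.0898). Tnf, Nfkbia, Ccl2, Tnfaip3, Cd14, Tlr2 and Socs3 were chosen after their values were seen.

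The vehicle libraries were low for the same cytokine genes. Il12b was at 10.6 and 8.26 CPM, Il1b at 297 and 188 CPM and Ptgs2 at 110 and 94.7 CPM with vehicle liposomes. Against the shared injury-only libraries, vehicle gave log2 fold changes of -2.19 for Il12b (adjusted p = 0.00108), -1.81 for Il1b (adjusted p = 0.00629) and -1.22 for Ptgs2 (adjusted p = 0.0167). Of the 26 genes 8 were called lower with vehicle and none higher, where 128 of 14007 genes were called in all (0.914%). Clodronate minus vehicle was 0.17 for Il12b (SE 0.29), 0.18 for Il1b (SE 0.31) and -0.23 for Ptgs2 (SE 0.25) on the log2 scale, and none of the 26 was called between the 2 kinds of liposome.

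**Figure D3:**
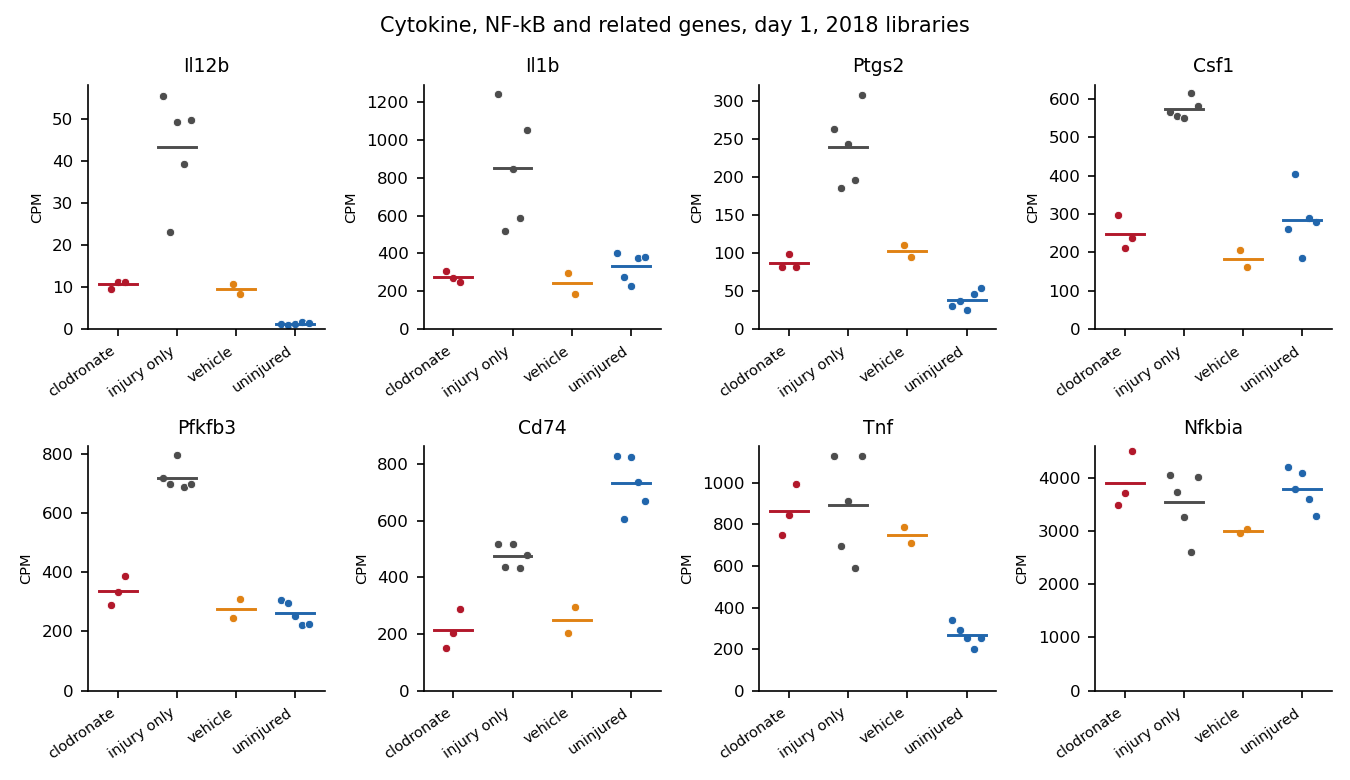
CPM on linear axes from 0 for 8 cytokine, NF-kB and related genes in the 15 libraries of day 1 and the earlier year; points are libraries and bars are group means. For Il12b, Il1b, Ptgs2, Csf1, Pfkfb3 and Cd74 the 3 clodronate and the 2 vehicle libraries all lie below the 5 injury-only libraries, whereas Tnf and Nfkbia overlap between clodronate and injury only.

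Csf1 and Pde4b were also lower. Csf1, the growth factor of microglia and macrophages, was at 298, 212 and 236 CPM with clodronate and between 550 and 615 CPM with injury alone (log2 fold change -1.21, SE 0.18, adjusted p = 0.000736). Pde4b, a phosphodiesterase that breaks down cyclic AMP and was singled out after its values were seen, was at 86.0, 83.1 and 116 CPM with clodronate and between 232 and 325 CPM without (-1.54, SE 0.16, adjusted p = 6.86e-05). Neither gene's groups overlapped. Vehicle gave -1.64 for Csf1 (adjusted p = 0.00108) and -1.87 for Pde4b (adjusted p = 0.000132).

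Of 21 glycolysis and hypoxia genes 5 fell, none rose, and all 21 had a negative fold change, with a median of -0.30 on the log2 scale. Pfkfb3, which makes the activator of the rate-setting step of glycolysis, was at 291, 332 and 388 CPM with clodronate and between 688 and 799 CPM with injury alone (-1.10, SE 0.13, adjusted p = 9.15e-05). The injury-only libraries were close together and all well above the clodronate libraries. Slc2a1, a glucose transporter, fell by 0.75 on the log2 scale (SE 0.19, adjusted p = 0.0284), Pgk1 by 0.52 (SE 0.12, adjusted p = 0.0136) and Tpi1 by 0.51 (SE 0.15, adjusted p = 0.0485), the last 2 being enzymes of the pathway itself. The groups of Tpi1 overlapped. Without clodronate library 3 the adjusted p-values of Slc2a1, Pgk1 and Tpi1 were 0.143, 0.0938 and 0.217; Slc2a1 also lost its call without clodronate library 1, and Tpi1 without any library but injury-only library 4. The count of 5 fell to 1 without clodronate library 3 and to 2 without clodronate library 1. It was 3 without clodronate library 4 or injury-only library 1, 2 or 5. Vehicle minus injury only had a list median of -0.41, with 2 called lower (0.685% of all genes were). Vehicle gave -1.38 for Pfkfb3 (adjusted p = 0.000259), -1.04 for Slc2a1 (adjusted p = 0.0317), -0.70 for Tpi1 (adjusted p = 0.0632) and -0.35 for Pgk1 (adjusted p = 0.244). None of the 21 was called between clodronate and vehicle.

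Antigen presentation genes split. Of 10 MHC class II genes 4 fell (Cd74, H2-Ab1, H2-Eb1 and H2-Aa) and none rose. They summed to 566 to 680 CPM with clodronate, to 890 to 1068 CPM with injury alone and to 1560 to 2250 CPM in the uninjured libraries. Here too the clodronate sums were the furthest from the uninjured ones. Cd74, the invariant chain that guides class II molecules, was at 151, 203 and 288 CPM with clodronate and between 434 and 518 CPM with injury alone (log2 fold change -1.16, SE 0.18, adjusted p = 0.000848). H2-Ab1, a class II beta chain, was at 20.1, 32.5 and 51.4 CPM with clodronate and at 113, 107, 55.6, 84.5 and 95.9 CPM without (-1.40, SE 0.27, adjusted p = 0.00532). The highest clodronate library lay just under the lowest injury-only library for H2-Ab1. H2-Eb1 had -1.54 (SE 0.29, adjusted p = 0.00387) and H2-Aa -1.37 (SE 0.30, adjusted p = 0.0113, and up to 0.0733 without clodronate library 1 or 3). The peptide-loading gene H2-DMa, chosen after its values were seen, differed by 0.14 (SE 0.18, adjusted p = 0.716). Vehicle gave -0.94 for Cd74 (adjusted p = 0.0287) and -1.19 for H2-Ab1 (adjusted p = 0.0928).

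Of 15 MHC class I genes 2 fell, H2-Q6 (-1.59, SE 0.26, adjusted p = 0.00173) and H2-Q7 (-1.14, SE 0.23, adjusted p = 0.00612), near-identical copies whose reads cannot be split with certainty. Of 30 interferon response genes 4 fell and none rose, with a median log2 fold change of -0.22. Cxcl10, a chemokine for T cells, was at 40.2, 30.8 and 42.2 CPM with clodronate and between 56.6 and 117 CPM with injury alone (-1.16, SE 0.23, adjusted p = 0.00559), and Ifitm3, a membrane protein that blocks virus entry, had -0.79 (SE 0.17, adjusted p = 0.0102). Their groups did not overlap, yet both calls were lost without clodronate library 3, at adjusted p-values of 0.0551 and 0.0733, and that of Ifitm3 also without clodronate library 1. Ifit3, a classical interferon-induced gene, differed by -0.29 (SE 0.20, adjusted p = 0.427).

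Stress and immediate early genes moved in both directions. Of 24 immediate early genes 7 fell and 4 rose. Klf4, a transcription factor of the early response, was at 63.4, 64.9 and 75.1 CPM with clodronate and between 94.5 and 192 CPM with injury alone (log2 fold change -1.12, SE 0.17, adjusted p = 0.000852). Ier3, an early gene that limits cell death, was at 598, 838 and 1163 CPM with clodronate and between 255 and 532 CPM without (1.03, SE 0.21, adjusted p = 0.00644, and 0.0543 without clodronate library 4). Fosb, a partner of Jun, fell by 1.3 on the log2 scale (SE 0.25, adjusted p = 0.00456). The groups did not overlap for any of these 3 genes. Vehicle minus injury only was -1.09 for Klf4 (adjusted p = 0.00905), 0.65 for Ier3 (adjusted p = 0.226) and -0.88 for Fosb (adjusted p = 0.173). The counts rested on few libraries: 3 members were lower without clodronate library 3, clodronate library 4 or injury-only library 1, and 4 without clodronate library 1 or injury-only library 2, while 1 was higher without clodronate library 3 and none without clodronate library 4.

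Of 18 heat shock genes 6 fell and none rose, with a median log2 fold change of -0.40. They summed to 4472 to 5882 CPM with clodronate, to 5957 to 8795 CPM with injury alone and to 15090 to 19580 CPM in the uninjured libraries. The clodronate sums were thus further from the uninjured ones than the injury-only sums were. Hsp90aa1, the inducible HSP90 chaperone, was at 166, 157 and 149 CPM with clodronate and between 213 and 300 CPM with injury alone (-0.72, SE 0.13, adjusted p = 0.00257). The heat shock count fell to 1 without clodronate library 3, 3 without clodronate library 4 and 3 without injury-only libraries 4 and 5 together. Of 26 p53 response and apoptosis genes 3 fell and none rose: Bbc3 (-0.87, SE 0.16, adjusted p = 0.00362) and Pmaip1 (-1.15, SE 0.22, adjusted p = 0.00501), which promote cell death, and Cdkn1a (-0.91, SE 0.20, adjusted p = 0.0103, and up to 0.0885 without clodronate library 1 or 3), which encodes the cell cycle inhibitor p21. Cdkn1a was at 174, 140 and 263 CPM with clodronate, at 123 and 176 CPM with vehicle and between 242 and 442 CPM with injury alone, so that the highest clodronate library lay inside the injury-only range. Of 22 NRF2, redox and metal genes 3 fell, led by Srxn1, which repairs peroxiredoxins (-0.87, SE 0.16, adjusted p = 0.00344). Of 16 circadian clock genes 1 fell, the repressor Nr1d1 (-1.22, SE 0.22, adjusted p = 0.00305, and 0.0882 with all day 1 libraries and library year as a covariate). Vehicle minus injury only was -1.27 for Cdkn1a (adjusted p = 0.00961), -0.84 for Srxn1 (adjusted p = 0.0357) and -1.35 for Nr1d1 (adjusted p = 0.0157). It was -0.38 for Hsp90aa1, -0.53 for Bbc3 and -0.92 for Pmaip1, none of these called.

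Lysosome genes had small rises. Of 28 tested, 5 rose and none fell, with a median log2 fold change of 0.15. Gusb, the enzyme beta-glucuronidase, was at 778, 797 and 834 CPM with clodronate and between 529 and 619 CPM with injury alone (0.49, SE 0.09, adjusted p = 0.0029). Scarb2, a lysosomal membrane protein, was at 157, 157 and 177 CPM with clodronate and between 106 and 122 CPM without (0.50, SE 0.09, adjusted p = 0.0029). Both groups were narrow and apart. Man2b1, the lysosomal alpha-mannosidase, was not on the list and was chosen after its values were seen; it rose by 0.73 (SE 0.10, adjusted p = 0.000378). The list's count fell to 3 without clodronate library 1 or 3 and to 2 without clodronate library 4.

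The genes that define resting microglia differed little. The median log2 fold change of the 22 homeostatic genes was 0.24, and 18 had a positive fold change. Of these genes 1 was called higher and none lower. Tmem119 was at 3854, 3942 and 3125 CPM with clodronate and between 2927 and 3615 CPM with injury alone (0.19, SE 0.12, adjusted p = 0.382). The purine receptor gene P2ry12 differed by 0.16 (SE 0.21, adjusted p = 0.727), and its sign turned without clodronate library 1 (-0.05). Apoe, the lipid carrier raised in activated microglia, differed by 0.38 (SE 0.18, adjusted p = 0.231). Of 24 injury and disease associated genes Csf1 and Lgals3 (galectin 3; -0.64, SE 0.18, adjusted p = 0.0392, and up to 0.183 without any library but injury-only libraries 1 and 4) fell and none rose.

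No member was called in either direction among 30 respiratory chain, 22 cholesterol synthesis, 21 scavenger receptor, 10 mitochondrial genome, 13 border macrophage and 9 dendritic cell genes, with medians of -0.15, -0.04, 0.10, -0.12, 0.34 and -0.14 on the log2 scale. Among 13 complement genes C4b, a component of the classical pathway, was the 1 called, at 195, 192 and 133 CPM with clodronate and between 44.0 and 91.5 CPM with injury alone (1.49, SE 0.26, adjusted p = 0.00257). Its groups did not overlap, which the naming rule required of genes with the largest fold changes. Of the vehicle libraries 1 lay in the clodronate range (151 CPM) and 1 in the injury-only range (76.7 CPM).

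**Figure D4:**
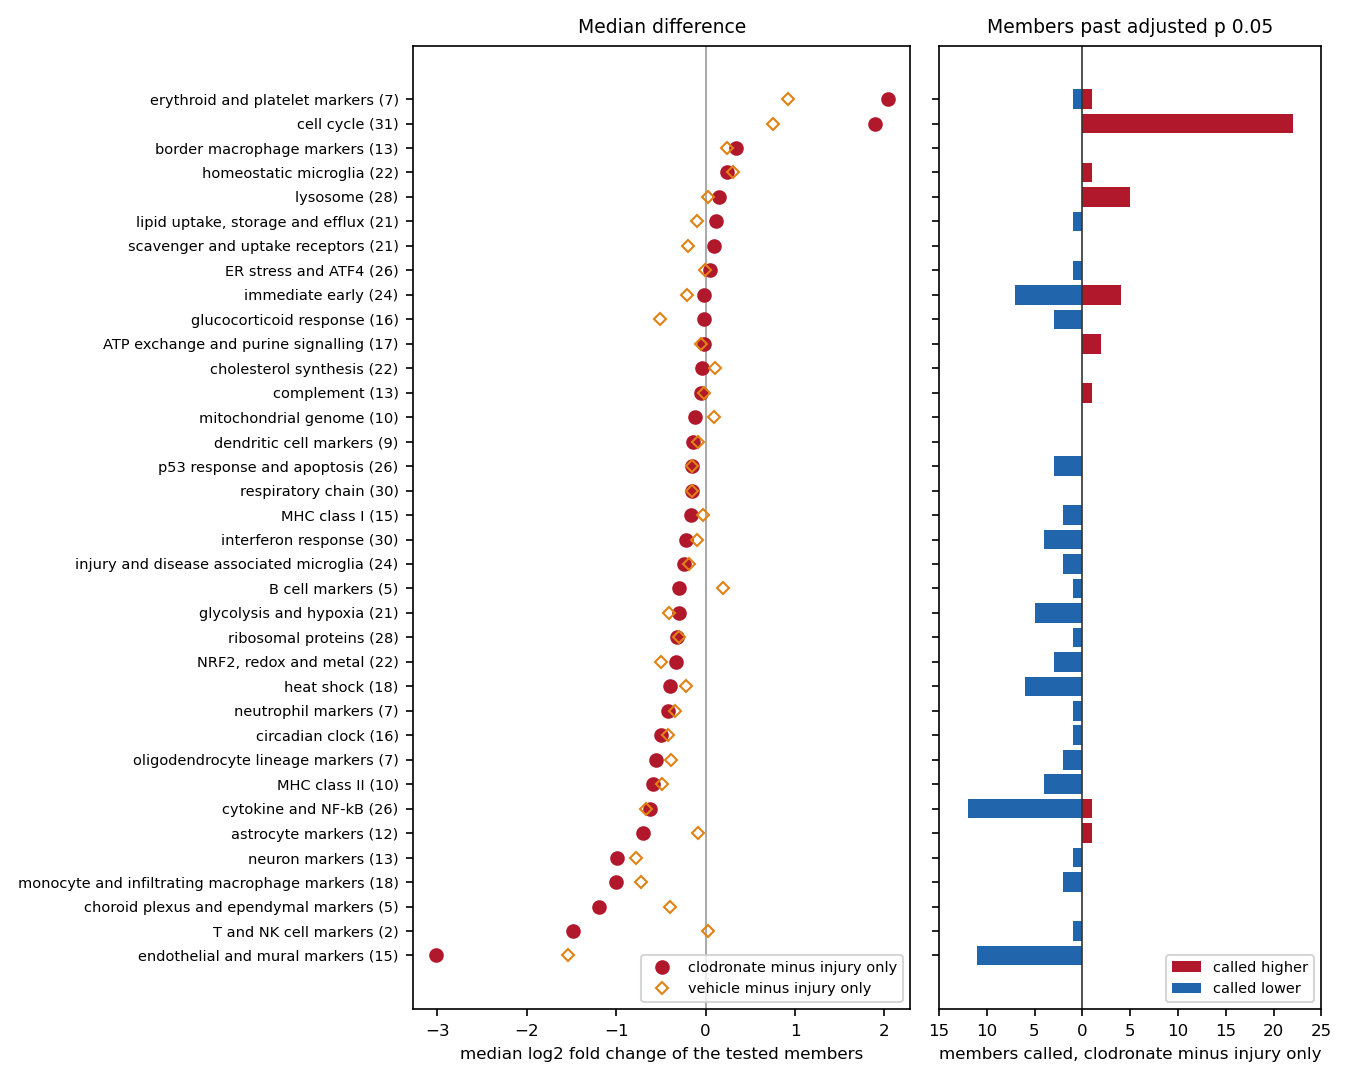
Left, the median log2 fold change of the tested members of each gene list for clodronate minus injury only (filled circles) and for vehicle minus injury only (open diamonds), which share the injury-only libraries; the number of tested members is in brackets. Right, the number of members called higher (red) or lower (blue) for clodronate minus injury only, with cell cycle at 22 higher, cytokine and NF-kB at 12 lower and endothelial and mural markers at 11 lower.

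Genes of blood vessels fell furthest. Of 15 endothelial and mural marker genes 11 fell and none rose, all 15 had a negative fold change, and the median log2 fold change was -3.02. Their summed level was 38.5 to 40.5 CPM in the clodronate libraries, 128 to 409 CPM in the injury-only libraries, 55.5 to 97.0 CPM in the vehicle libraries and 104 to 240 CPM in the uninjured libraries. The clodronate libraries were thus the lowest of all 4 groups. These genes mark cells other than microglia, and in bulk samples fewer such cells and less RNA in each cannot be told apart.

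Tek, the receptor for angiopoietins on endothelial cells, was at 0.255, 0.670 and 0.487 CPM with clodronate, at 5.45, 7.40, 3.17, 5.45 and 4.26 CPM with injury alone and at 5.62 and 2.40 CPM with vehicle. It fell by 3.45 on the log2 scale against injury only (SE 0.44, adjusted p = 0.000211). It was also the 1 gene called lower against vehicle (-3.09, SE 0.50, adjusted p = 0.0371). Cldn5, the tight junction protein of the blood-brain barrier, was at 1.91, 2.53 and 2.09 CPM with clodronate and at 52.8, 16.0, 12.4, 14.4 and 12.1 CPM with injury alone (-3.30, SE 0.59, adjusted p = 0.00257). Injury-only library 1 stood far above the other 4, which in turn were all above the clodronate libraries. Flt1, a receptor for the growth factor VEGF, had -3.51 (SE 0.57, adjusted p = 0.00159), Ly6c1 -3.53 (SE 0.62, adjusted p = 0.00248), and Slco1a4, a transporter of the barrier, -3.21 (SE 0.60, adjusted p = 0.00362). Acta2, the actin of smooth muscle, had -5.29 (SE 1.00, adjusted p = 0.00401), and -7.47 without clodronate library 4, which held 0.904 CPM against 0.0637 and 0.0745 CPM in the other two. Kdr, the main VEGF receptor, was chosen after its values were seen and differed by -0.50 (SE 0.31, adjusted p = 0.392).

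Without injury-only library 1, 10 of the 15 were called lower with a median of -2.48, and without clodronate library 3, 7 were. Without injury-only library 1 the log2 fold changes of Cldn5, Flt1 and Ly6c1 were -2.64, -2.88 and -2.80. Several other genes with the largest falls by the naming rule are known in vessels as well: Plat, the tissue plasminogen activator (-3.22, SE 0.55, adjusted p = 0.00203), Igfbp7 (-3.03, SE 0.52, adjusted p = 0.0021), Apold1 (-2.26, SE 0.39, adjusted p = 0.00208) and Ly6a (-1.86, SE 0.42, adjusted p = 0.0138, and up to 0.0695 without clodronate library 1 or 3). Vehicle libraries had fitted differences of -1.54 for the list's median, with none of the 15 called.

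**Figure D5:**
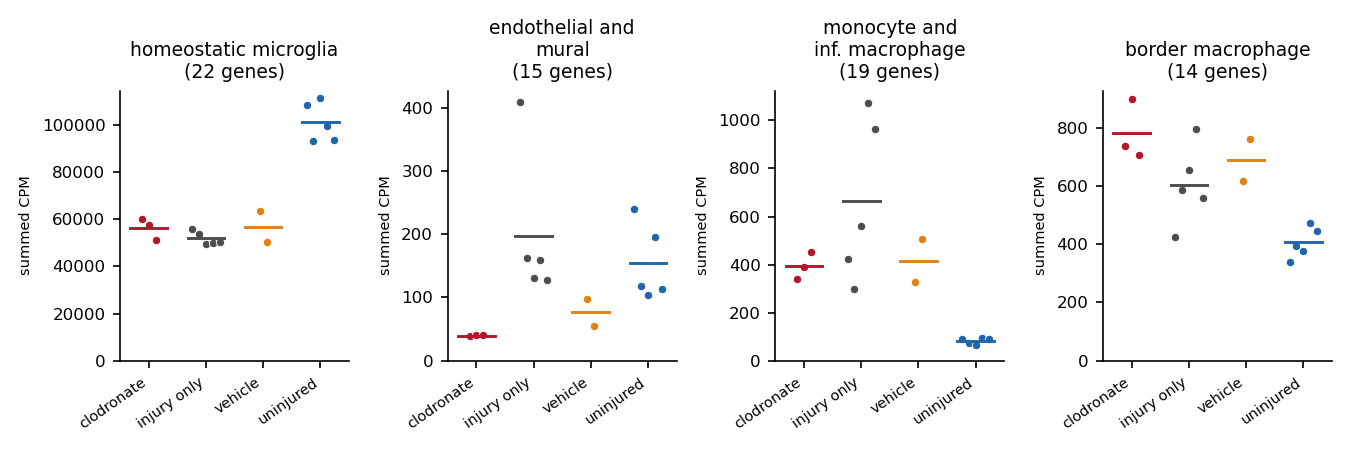
Summed CPM of 4 marker lists in the 15 libraries of day 1 and the earlier year, on linear axes from 0; points are libraries and bars are group means. The endothelial and mural sum is at 38.5 to 40.5 in the clodronate libraries and reaches 409 in injury-only library 1, and the monocyte sum reaches 1074 among the injury-only libraries.

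Monocyte genes differed in few cases. Of 18 tested 2 fell and none rose, with a median log2 fold change of -1.001. Ccr2, the receptor that brings monocytes into tissue, was at 4.14, 3.35 and 2.92 CPM with clodronate, at 9.18, 7.33, 4.55, 10.3 and 12.5 CPM with injury alone and at 12.9 and 5.70 CPM with vehicle. All 3 clodronate libraries were below all 7 other injured libraries. The log2 fold change against injury only was -1.33 (SE 0.32, adjusted p = 0.0186, and up to 0.091 without clodronate library 3 or 4). Ccr2 had a mean of 7.95 CPM in the uninjured libraries, and injury only minus uninjured was 0.14 (adjusted p = 0.705). The summed list, in contrast, was at 63.7 to 93.5 CPM in the uninjured libraries, below every injured library. Thbs1, an adhesive matrix protein also made by macrophages, fell by 1.41 on the log2 scale with overlapping groups (SE 0.36, adjusted p = 0.0281, and up to 0.109 without any clodronate library or injury-only library 5).

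Injury-only libraries 4 and 5 held more of several of these genes than the other 3. Arg1, an enzyme of repair-type macrophages singled out after its values were seen, was at 22.8, 10.2, 12.7, 134 and 127 CPM in injury-only libraries 1 to 5 and at 11.8, 0.670 and 6.33 CPM with clodronate. The difference was -3.27 (SE 0.97, adjusted p = 0.0572). With injury-only libraries 4 and 5 left out together, 841 genes were called, and the cell cycle, cytokine and endothelial lists had 25 higher, 11 lower and 11 lower. Both monocyte calls ended in that fit, Ccr2 at -1.01 (adjusted p = 0.0758) and Thbs1 at -0.74 (adjusted p = 0.114). Border macrophage genes overlapped between the groups: Mrc1 was at 37.2, 23.1 and 30.8 CPM with clodronate and between 13.4 and 46.8 CPM without (0.20, SE 0.34, adjusted p = 0.794), and Cd163 differed by 0.62 (SE 0.45, adjusted p = 0.476). Ms4a7 differed by -0.37 (SE 0.36, adjusted p = 0.621), and the neutrophil gene S100a8 was at or below 3.20 CPM in every library (-0.53, SE 0.72, adjusted p = 0.736).

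Lcn2 and Ccl5, on the neutrophil and the T and NK lists, are also made by activated glia or macrophages. Lcn2 was at 7.78, 14.1 and 20.1 CPM with clodronate and between 22.5 and 63.8 CPM with injury alone (-1.61, SE 0.39, adjusted p = 0.0202, and up to 0.108 without clodronate library 1 or 3). Ccl5 was at 4.46, 12.4 and 16.5 CPM with clodronate and between 17.3 and 62.5 CPM without (-1.78, SE 0.44, adjusted p = 0.0236, and up to 0.109 without clodronate library 1 or 3 or injury-only library 3). Neither pair of groups overlapped.

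The largest rises among well expressed genes were of several kinds. Racgap1 and Tacc3, which act at the spindle, rose by 2.16 (SE 0.26, adjusted p = 9.15e-05) and 1.35 (SE 0.18, adjusted p = 0.000298) on the log2 scale. Egln1, the oxygen sensor that marks HIF for destruction, was at 22.6, 30.4 and 25.7 CPM with clodronate, at 14.5 and 14.8 CPM with vehicle and between 9.73 and 12.9 CPM with injury alone (1.24, SE 0.18, adjusted p = 0.000736). Mid1, a ubiquitin ligase on microtubules, was at 18.4, 20.6 and 13.7 CPM with clodronate, at 16.9 and 14.7 CPM with vehicle and between 5.45 and 8.95 CPM with injury alone (1.21, SE 0.18, adjusted p = 0.000705). For Egln1 the vehicle libraries lay between the other groups, and for Mid1 they lay within the clodronate range. Sorl1, a sorting receptor, rose by 1.15 (SE 0.23, adjusted p = 0.00559) and Uhrf1, which keeps DNA methylation through replication, by 1.24 (SE 0.26, adjusted p = 0.00905); both calls were lost without clodronate library 3, at adjusted p-values of 0.071 and 0.0781.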

How the data were processed

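Gene counts of microglia libraries were used as deposited by the authors: whole-number counts per gene for 49671 Ensembl genes, of which 49412 had a symbol. Per the submitters' processing notes, STAR and the mouse builds mm10 and GRCm38 were used; a column of the deposited run summary names HTSeq, and no strand setting is given in the sources used here, so overlapping and antisense genes are uncertain. Percent values of aligned and duplicate reads come from the deposited run summary, of whose 85 lines 1 fitted no library and was left out. Groups follow the sample labels. The 15 libraries of day 1 and the earlier library year were fitted together in R 4.3.3 by edgeR 4.0.16 (filterByExpr with a minimum count of 10, TMM scaling, quasi-likelihood F test, Benjamini-Hochberg adjustment, calls at 0.05), which shares 1 estimate of spread among the groups. CPM are TMM-scaled, and levels compare libraries, not genes. The total count per library (12945907 to 15602105 in the 8 compared) sets the counting precision of low genes.

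In simulated data for clodronate minus injury only (13274 genes), 100% of genes changed by a log2 of 2 were called, 66.7% at 1 and 9.2% at 0.5. The simulation gave every gene the same spread and changed 65, 63 and 65 genes at these sizes. Its shares therefore do not carry over to real genes of other spread. Alternatives were DESeq2 1.42.0 (size factors, Wald test), limma 3.58.1 (voom), other filters, other sets of libraries, a minimum fold and a replicate block. Named genes are, by rule, the 12 called genes with the largest fold change in each direction (mean log2 CPM of at least 3, groups not overlapping), up to 4 called members of each list, and a few preset genes; others are said to be chosen after their values were seen. The libraries, lists and tests were chosen with earlier results of these data known. The text names fewer genes than the rule allows, and a result on a named gene is not reported here.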

Additional observations from a re-analysis of the deposited data

Results flagged for a closer look

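In 13 of 93 measures, the genes named here and the summed marker lists, 1 of the 5 injury-only libraries stood far from the other 4. By chance about 1 in 20 such groups would do so if measures were normal and independent. These measures are not independent, since vessel genes were high together in the same library and their sum holds several of them. The 13 therefore cannot be set against that rate. Injury-only library 1 was that library in 10 of the 13. It was high for 7 genes known in vessels or lowered with them, with the range of the other 4 in brackets: Flt1 at 57.35 CPM (11.45 to 21.58), Plat at 53.07 CPM (14.36 to 21.46), Igfbp7 at 49.41 CPM (13.07 to 21.32), Ly6c1 at 92.36 CPM (16.22 to 28.72), Cldn5 at 52.83 CPM (12.1 to 16.04), Slco1a4 at 57.35 CPM (12.03 to 23.06) and Ly6a at 93.53 CPM (23.26 to 33.59). The summed endothelial and mural list was at 409.3 CPM in it, against 127.9 to 163 CPM in the other 4. It was also high for the glucose transporter gene Slc2a1 at 448.9 CPM (209 to 273.6) and low for Cdk1 at 1.634 CPM (2.298 to 2.376).

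The 3 others were single genes in different libraries. Pfkfb3 was at 798.7 CPM in injury-only library 3, Racgap1 at 8.489 CPM in library 4 and H2-DMa at 206.9 CPM in library 5. For Pfkfb3 and Racgap1 the distant library still lay on the injury-only side of all clodronate libraries.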

How the results depend on the processing

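The count of 748 genes (324 higher, 424 lower) was 1330 (623 and 707) with no filter on low counts, 489 (202 higher) with a stricter one, 1147 (705 lower) with DESeq2's Wald test, 1666 (781 and 885) with voom and 414 (150 and 264) at a minimum log2 fold change of 1. Leaving out 1 library gave 250 to 833 genes in all, 130 to 380 higher and 120 to 453 lower. The cell cycle list had 18 to 26 members higher in those fits and 12 with the stricter filter. Of the 70 called genes named here 46 kept their call without any 1 of the 8 libraries, and 23 of the other 24 lost it without clodronate library 3. With all 20 day 1 libraries and library year as a covariate 701 genes were called, and 12 of the named genes lost their call (Ccl5, Cd14, Lcn2, Lgals3, Mcm7, Nr1d1, Pgk1, Ppbp, Slc2a1, Socs3, Thbs1 and Tpi1). Only 2 genes changed sign, neither called: Tnf without clodronate library 1 (0.045) and injury-only library 1 (0.065) or 5 (0.051), over a range of -0.167 to 0.065 with 1 library out, and P2ry12 without clodronate library 1 (-0.053 to 0.378). Vehicle minus injury only (128 genes) gave 56 from its 2 groups alone, 351 with DESeq2 and 44 to 85 without 1 vehicle library. Clodronate minus vehicle (3 genes) gave 0 from its 2 groups alone, 41 with DESeq2 and 0 to 2 without 1 vehicle library. The causes were not tested. In the simulated data, where all genes had the same spread, changes of a log2 of 0.5 were mostly missed. Among the real genes some of that size were called, such as Gusb (0.49) and Scarb2 (0.50).

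The deviations of libraries with the same number from their group means correlated at -0.068, -0.01 and -0.161. So few pairs, with means taken over small groups, cannot show whether the numbers pair libraries, and the labels state no pairing. With the replicate block 509 genes were called (195 higher, 314 lower), 456 of them among the 748; clodronate minus vehicle gave 0 genes, vehicle minus injury only 149, and Tnf had 0.046.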

Other observations

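In a few cell types not described above few genes were called, but most of the genes tested had a negative fold change. Of 12 astrocyte genes 1 was called higher and none lower, while 10 had a negative fold change and the median log2 fold change was -0.70. Their summed levels were 145 to 221 CPM with clodronate and 114 to 152 CPM with injury alone. The 1 gene called higher was itself at 130, 148 and 202 CPM with clodronate and between 90.8 and 122 CPM with injury alone. Of 7 oligodendrocyte lineage genes tested 2 were called lower and 6 were negative (median -0.56), with sums of 171 to 191 and 192 to 276 CPM. Of 13 neuron genes 1 was called lower and 11 were negative (median -0.99), with sums of 8.86 to 17.2 and 15.7 to 28.9 CPM. Of 5 choroid plexus and ependymal genes tested none was called and 4 were negative (median -1.19). The sums of that list were 108 to 163 and 160 to 400 CPM. The 28 ribosomal protein genes all had a negative fold change, with a median of -0.32 on the log2 scale, and 1 was called. Among 17 genes of purine signalling 2 were called higher and none lower.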
